A study of Danio rerio with 6 samples.

Results

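Apolipoproteins are the protein components of lipoprotein particles, and 10 zebrafish genes of this family were examined in 2 cell fractions of the embryonic heart. The genes were taken by symbol as apolipoproteins of the yolk syncytial layer, the liver and macrophages, and all 10 were found among the 31465 genes in the files. They are apoa1a (ENSDARG00000012076), apoa1b (ENSDARG00000101324), apoa2 (ENSDARG00000015866), apoa4b.1 (ENSDARG00000040298), apobb.1 (ENSDARG00000022767), apoc1 (ENSDARG00000092170), apoc2 (ENSDARG00000092155), apoea (ENSDARG00000102004), apoeb (ENSDARG00000040295) and apom (ENSDARG00000076838). All 10 passed the filter on low counts, which 21969 genes passed.

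Both fractions came from hearts of the enhancer-trap line sqet33mi59BEt at 72 hpf, in which GFP marks a ring of cells at the venous pole. The GFP+ cells represent the sinoatrial ring (SAR) and the GFP- cells the rest of heart (ROH), and poly(A) RNA was sequenced from 3 replicates of each. Each replicate was a pool of many embryos, sheared to release the hearts, so a library carries no information on single animals, and GFP+ means only that a cell passed the sort. No treatment or mutation separated the groups, and the question was which genes the SAR expresses differently from the ROH.

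Lipoprotein particles carry fat and cholesterol through the blood, and in a zebrafish embryo much of that fat comes from the yolk. The yolk syncytial layer, and later the liver and the intestine, package lipid around apolipoprotein B and release the particles. The smaller apolipoproteins exchange between particles, where they act as scaffolds, enzyme cofactors and receptor ligands, and apolipoprotein E is also made by macrophages and microglia.

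The SAR libraries held 7495108, 35013935 and 77243214 estimated counts in replicates 1 to 3, and the ROH libraries 999437, 23495798 and 19081874. A count of 3, taken as the detection floor, was 3.002 CPM (counts scaled by library size) in ROH replicate 1 and between 0.0388 and 0.400 CPM in the other libraries. One SAR library stood apart for liver genes: the summed level of 22 liver markers was 1061 TPM (transcripts scaled by gene length and library total) in SAR replicate 2, against 216.2 and 424.9 in SAR replicates 1 and 3. Without rbp4, the marker with the highest mean in SAR, the sums were 844.8 TPM in SAR replicate 2 and 142.9 and 86.2 TPM in SAR replicates 1 and 3. Of the 11 tested cardiomyocyte markers, 2 were called higher and 0 lower in SAR, and their summed level was 1071 to 4008 TPM in SAR and 774.7 to 1406 TPM in ROH. The SAR libraries also carried skin markers, 9 of 12 of which were called higher there. The ROH libraries carried blood, with 11 of 11 erythroid markers called lower in SAR. Of all tested genes, 3.7% were called lower and 2.84% higher in SAR.

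As a group, the apolipoprotein genes were lower in the SAR. In every SAR library, 8 of the 10 genes were below their level in every ROH library. A gene was called when the quasi-likelihood test of edgeR, with p-values adjusted by Benjamini-Hochberg over 21969 genes, gave an adjusted p under 0.05 and the log2 fold change was at least 1.5 in size. By that rule 6 of the 10 were lower in SAR and 0 were higher, where 3.7% of all tested genes were called lower and 2.84% higher. All SAR libraries were below all ROH libraries for 15.6% of the tested genes. The median log2 fold change, SAR minus ROH, was -3.24 over the 10 genes and 0.03 over all tested genes. In these bulk fractions, fewer cells of a type and less RNA per cell cannot be told apart. An exact two-sided permutation test on 3 against 3 libraries cannot go below p = 0.1. Any gene with separate fractions reaches that value, so for the 8 separated genes it adds nothing to their separation.

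The number of genes called depended on the pairing of libraries and on single libraries. With the replicate number as a block, 8 of the 10 were called lower, beside 4.73% of all tested genes. Without SAR replicate 2, 8 of the 10 were called lower, where 4.66% of all tested genes were. Leaving out SAR replicate 1, SAR replicate 3 or ROH replicate 1 gave 4 of the 10, beside 3.26, 2.56 and 2.8% of all tested genes. Leaving out ROH replicate 2 gave 3, beside 1.98%, and leaving out ROH replicate 3 gave 2, beside 2.36%.

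**Figure D1:**
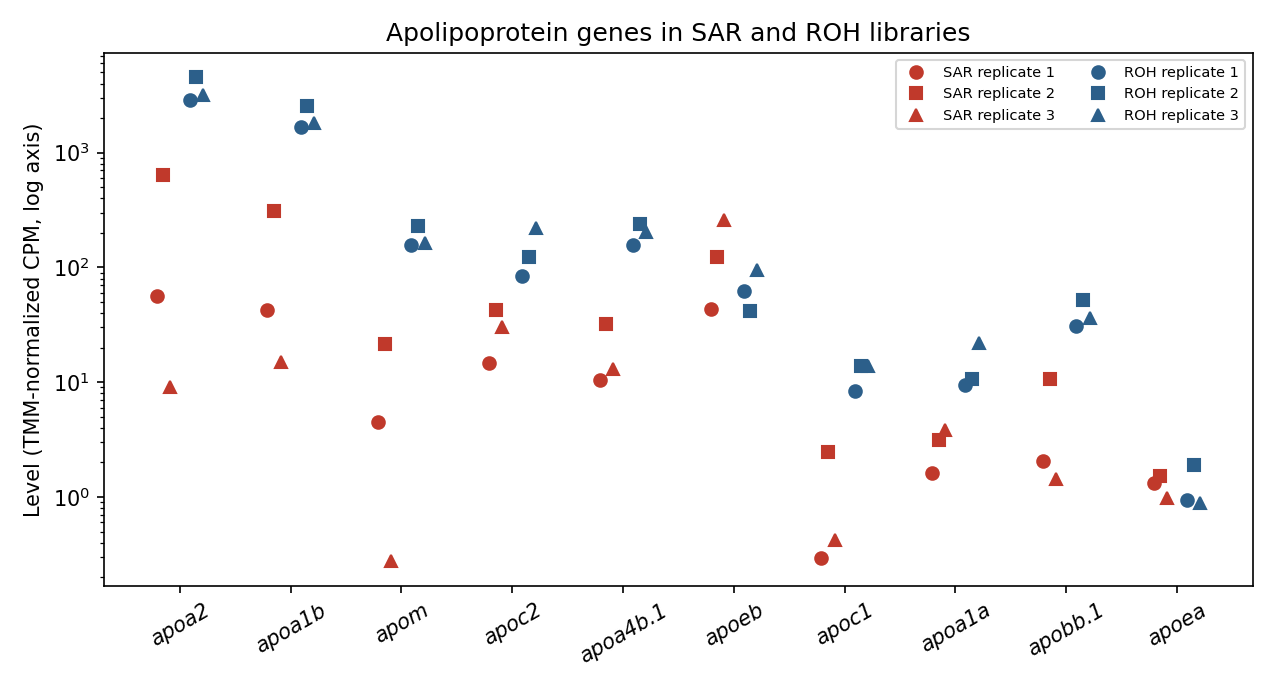
Level of each of the 10 apolipoprotein genes in every library, as TMM-normalized CPM on a log axis, with SAR libraries in red, ROH libraries in blue and one symbol per replicate. The groups are separate for 8 genes and overlap for apoeb, where SAR replicate 3 is highest at 258.5 CPM, and for apoea, where all libraries lie between 0.895 and 1.90 CPM.

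The most abundant of these transcripts were those of high-density lipoprotein. The gene apoa2 encodes apolipoprotein A-II, a structural protein of these particles, and its level was 56.0, 637.5 and 9.10 CPM in SAR replicates 1 to 3, against 2879, 4538 and 3182 CPM in ROH replicates 1 to 3. Even the highest SAR library was far below the lowest ROH library, but the SAR libraries themselves spanned a wide range. SAR replicate 2 was 11.4 times SAR replicate 1 and 70.1 times SAR replicate 3. Hence apoa2 was not called, at a log2 fold change of -3.91 (SE 1.27, edgeR adjusted p = 0.0959). With the replicate number as a block, since each pool of hearts gave both fractions, it was called lower (-5.66, edgeR adjusted p = 0.0124), and without SAR replicate 2 the value was -6.80 (edgeR adjusted p = 0.00259).

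Next in abundance was apoa1b, one of a pair of zebrafish genes for apolipoprotein A-I, the main protein of high-density lipoprotein and the cofactor of the enzyme that esterifies cholesterol there. It was present at 42.3, 311.8 and 15.03 CPM in SAR replicates 1 to 3 and at 1670, 2568 and 1802 CPM in ROH replicates 1 to 3. The order of the SAR libraries was that of apoa2, with replicate 2 highest and replicate 3 lowest. It was called lower in SAR, by 16.3-fold (log2 fold change -4.03, SE 1.01, edgeR adjusted p = 0.0405). That call was lost without SAR replicate 1 or without any one ROH library, at edgeR adjusted p-values from 0.0594 to 0.0882, and the log2 fold change was -6.16 without SAR replicate 2.

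Its paralogue apoa1a was far less abundant in ROH per transcript length and had another profile. Its level was 1.60, 3.15 and 3.84 CPM in SAR replicates 1 to 3 and 9.38, 10.8 and 22.0 CPM in ROH replicates 1 to 3. Here SAR replicate 3 was the highest SAR library rather than the lowest, and ROH replicate 3 was 2.18 times the mean of the other ROH libraries. The gene was called lower in SAR by 4.89-fold (log2 fold change -2.29, SE 0.45, edgeR adjusted p = 0.0173), a call lost without ROH replicate 3 (log2 fold change -1.73, edgeR adjusted p = 0.0816).

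Apolipoprotein M, a lipocalin that carries sphingosine-1-phosphate on high-density lipoprotein, was measured at 4.52, 21.5 and 0.275 CPM in SAR replicates 1 to 3 and at 156.6, 230.8 and 161.8 CPM in ROH replicates 1 to 3. Its gene apom had the most negative log2 fold change of the 10, with SAR replicate 3 at 0.150% of the ROH mean, yet it narrowly missed the call (log2 fold change -4.36, SE 1.17, edgeR adjusted p = 0.0521). With the replicate number as a block it was called lower (-5.59, edgeR adjusted p = 0.0115). SAR replicate 2 was 78.4 times SAR replicate 3. Leaving out SAR replicate 2 gave -6.91 (edgeR adjusted p = 0.00716) and leaving out SAR replicate 3 gave -3.76 (edgeR adjusted p = 0.0166).

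Among the genes of triglyceride-rich particles, apoa4b.1 had the most stable difference. It encodes an apolipoprotein A-IV, which in mammals is made by the intestine during fat absorption. Its level was 10.5, 32.4 and 12.9 CPM in SAR replicates 1 to 3 and 155.7, 238.0 and 205.2 CPM in ROH replicates 1 to 3. The fractions were well separated, and the gene was called lower in SAR by 10.7-fold (log2 fold change -3.41, SE 0.44, edgeR adjusted p = 0.00334). It was the only one of the 10 genes to be called without each of the 6 libraries in turn, at edgeR adjusted p-values from 0.000245 to 0.013.

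Apolipoprotein B is the large, non-exchangeable scaffold of which each such particle holds a single copy, and apobb.1 is one of its zebrafish genes. It measured 2.04, 10.7 and 1.44 CPM in SAR replicates 1 to 3 and 30.9, 52.2 and 36.6 CPM in ROH replicates 1 to 3. SAR replicate 2 again lay above the other SAR libraries, by 5.22 and 7.41 times, and the fractions did not overlap. The gene was called lower in SAR by 8.33-fold (log2 fold change -3.06, SE 0.71, edgeR adjusted p = 0.032). Leaving out SAR replicate 2 kept that call at a log2 fold change of -4.63, and leaving out any other library lost it, at edgeR adjusted p-values from 0.0506 to 0.0908.

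The C apolipoproteins act on the enzymes that unload these particles. The activator of lipoprotein lipase, apoc2, was present at 14.6, 43.0 and 30.3 CPM in SAR replicates 1 to 3 and at 83.5, 124.3 and 219.4 CPM in ROH replicates 1 to 3. ROH replicate 3 was 2.11 times the mean of the other ROH libraries, as for apoa1a. It was called lower in SAR by 4.87-fold (log2 fold change -2.28, SE 0.45, edgeR adjusted p = 0.0173), a call lost without SAR replicate 3 (edgeR adjusted p = 0.0536).

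The related apoc1, whose mammalian product inhibits lipid transfer and receptor uptake, was scarce in SAR, at 0.292, 2.45 and 0.418 CPM in replicates 1 to 3, and reached 8.44, 14.0 and 13.9 CPM in ROH replicates 1 to 3. The first of these SAR values rests on 2 counts, below the floor of 3, and the first ROH value on 9. It was called lower in SAR by 10.99-fold (log2 fold change -3.46, SE 0.74, edgeR adjusted p = 0.0231). The call was lost without SAR replicate 3, ROH replicate 2 or ROH replicate 3, at edgeR adjusted p-values of 0.0521, 0.0729 and 0.0554.

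The genes of apolipoprotein E, the ligand through which the low-density lipoprotein receptor family takes up particles, did not follow the others. For apoeb the level was 43.8, 124.0 and 258.5 CPM in SAR replicates 1 to 3 and 61.9, 41.9 and 95.8 CPM in ROH replicates 1 to 3. The fractions overlapped, with SAR replicate 1 below ROH replicates 1 and 3 and SAR replicates 2 and 3 above every ROH library. The log2 fold change was 1.09 (SE 0.58, edgeR adjusted p = 0.308; exact permutation p = 0.4), and it moved to 0.33 without SAR replicate 3 and to 1.56 without ROH replicate 3.

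Its paralogue apoea had the lowest mean TPM of the 10 genes in ROH. It measured 1.31, 1.52 and 0.980 CPM in SAR replicates 1 to 3 and 0.938, 1.90 and 0.895 CPM in ROH replicates 1 to 3, the first ROH value resting on 1 count. The fractions overlapped, and no difference was detected (log2 fold change -0.08, SE 0.55, edgeR adjusted p = 0.961; exact permutation p = 0.8). The sign of that value turned to 0.48 without ROH replicate 2 and to 0.09 without SAR replicate 3.

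Together the 10 genes made up 1.2, 1.82 and 1.18% of all TPM in ROH replicates 1 to 3, and 0.0303, 0.239 and 0.0441% in SAR replicates 1 to 3. Compared per transcript length, the mean levels in ROH were led by apoa2 at 9950 ± 2836 TPM (SD, n = 3), followed by apoa1b at 2883 ± 710.9 TPM. After these came apom at 450 ± 112.9 TPM, apoc2 at 305 ± 130.9 TPM and apoa4b.1 at 275.1 ± 51.9 TPM, among which the neighbours in this order overlapped. The mean then dropped to 76.2 ± 27.0 TPM for apoeb, and apoc1 and apoa1a overlapped at 28.9 ± 6.41 and 24.5 ± 10.1 TPM. The least abundant by TPM were apobb.1 at 4.48 ± 1.61 TPM and apoea at 2.66 ± 0.947 TPM, which overlapped with each other. The rank of apobb.1 depended on the division by transcript length. By CPM its ROH mean was 39.9, above apoa1a at 14.05 and apoc1 at 12.1. The effect of RNA integrity on the level of such a long transcript was not tested.

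In SAR the order changed. The mean of apoa2 was still the highest, at 589.3 ± 867.3 TPM (SD, n = 3), but its SD exceeded its mean, and apoa1b followed at 184.9 ± 258.7 TPM and apoeb at 166.6 ± 132.2 TPM. All pairs of neighbours in the SAR order overlapped across libraries. The share of apoa2 and apoa1b together in the TPM of the 10 genes was 92, 92.9 and 89.4% in ROH replicates 1 to 3, against 67.2, 86.6 and 10.8% in SAR replicates 1 to 3. The share of apoeb was 0.631, 0.271 and 0.876% in ROH and 15.1, 6.12 and 69.8% in SAR. SAR replicate 3 was thus the library in which apoeb and not apoa2 was the leading apolipoprotein transcript, and SAR replicate 2 had the make-up nearest to that of ROH. The ratio of apoa2 to apoa1b TPM stayed between 2.9 and 3.58 in 5 libraries and was 1.45 in SAR replicate 3.

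**Figure D2:**
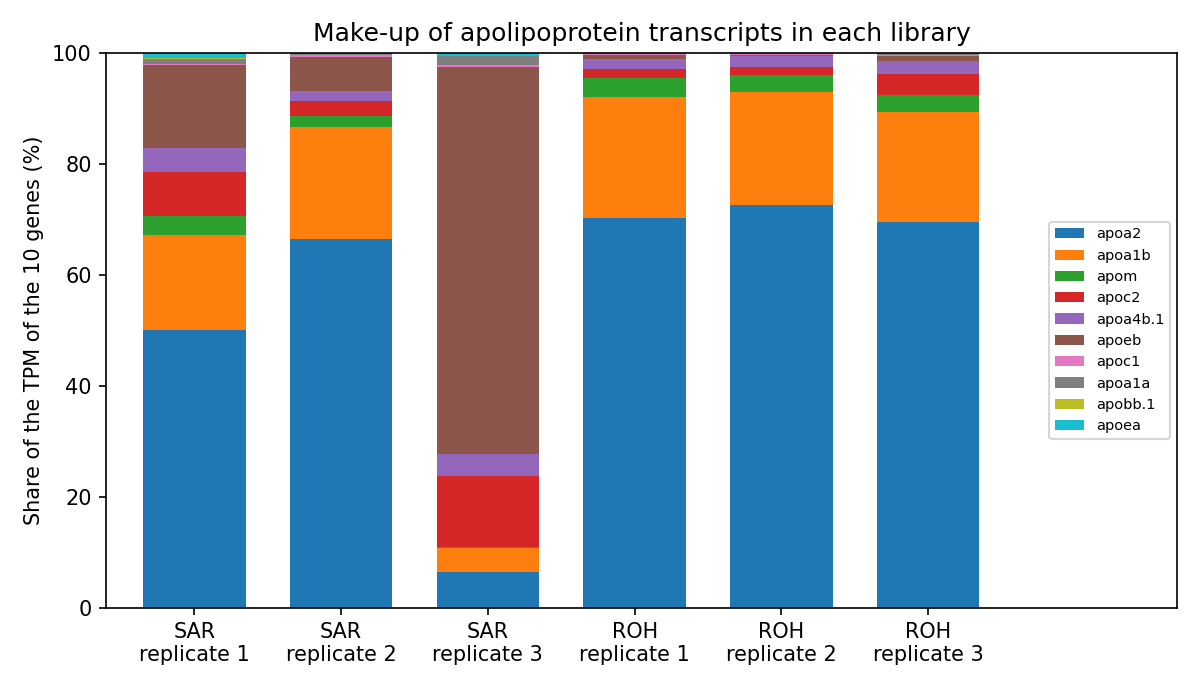
Share of each gene in the summed TPM of the 10 apolipoprotein genes, in percent, with one bar per library. The apoa2 and apoa1b segments fill 89.4 to 92.9% of the ROH bars, and apoeb fills 69.8% of the bar of SAR replicate 3.

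Another 11 genes with apolipoprotein symbols and the related afp4 passed the filter. Of these 12, 5 were called lower in SAR and 0 higher, beside 3.7% and 2.84% of all tested genes. The median log2 fold change of the 12 was -1.77. The other apolipoprotein B gene, apoba, was present at 0.438, 5.26 and 0.523 CPM in SAR replicates 1 to 3 and at 28.1, 54.1 and 46.7 CPM in ROH replicates 1 to 3 (log2 fold change -4.30, SE 0.87, edgeR adjusted p = 0.0184). A second apolipoprotein A-IV gene, apoa4b.2, was also called lower (-3.81, SE 0.43, edgeR adjusted p = 0.00211), and both of these calls held without each library in turn. The paralogue apobb.2 had a log2 fold change of -2.68 and was not called (edgeR adjusted p = 0.202), but it was with the replicate block (-3.73, edgeR adjusted p = 0.0293). All 3 apolipoprotein B genes thus had a negative value, and 2 of them were called without the block.

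The D apolipoproteins, lipocalins that carry small lipids, were also called lower. For apoda.1 the log2 fold change was -4.47 (SE 0.95, edgeR adjusted p = 0.0227), with 0 counts in SAR replicate 1, and for apodb it was -2.33 (SE 0.51, edgeR adjusted p = 0.0252). Both had their highest level in ROH replicate 3, at 141.7 and 264.3 CPM. The apoda.1 call was lost without ROH replicate 1 or 3 (edgeR adjusted p = 0.0549 and 0.063), and the apodb call without SAR replicate 1 or 3 (edgeR adjusted p = 0.0516 and 0.074). The gene afp4 (ENSDARG00000095863), whose product resembles the type IV antifreeze proteins of other fish, was the last one called (-2.49, SE 0.48, edgeR adjusted p = 0.0161).

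The remaining genes were not called, among them those named after apolipoprotein O, whose products sit in the inner mitochondrial membrane and are not known as plasma carriers. Their log2 fold changes were 0.10 for apoo, -0.60 for apool and -1.22 for apooa, of which only apooa had an adjusted p under 0.05 (edgeR adjusted p = 0.0111), below the fold threshold. For apof, apoa4a and apol1 the log2 fold changes were -0.59, -0.09 and 0.45, and their libraries overlapped between the fractions.

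**Figure D3:**
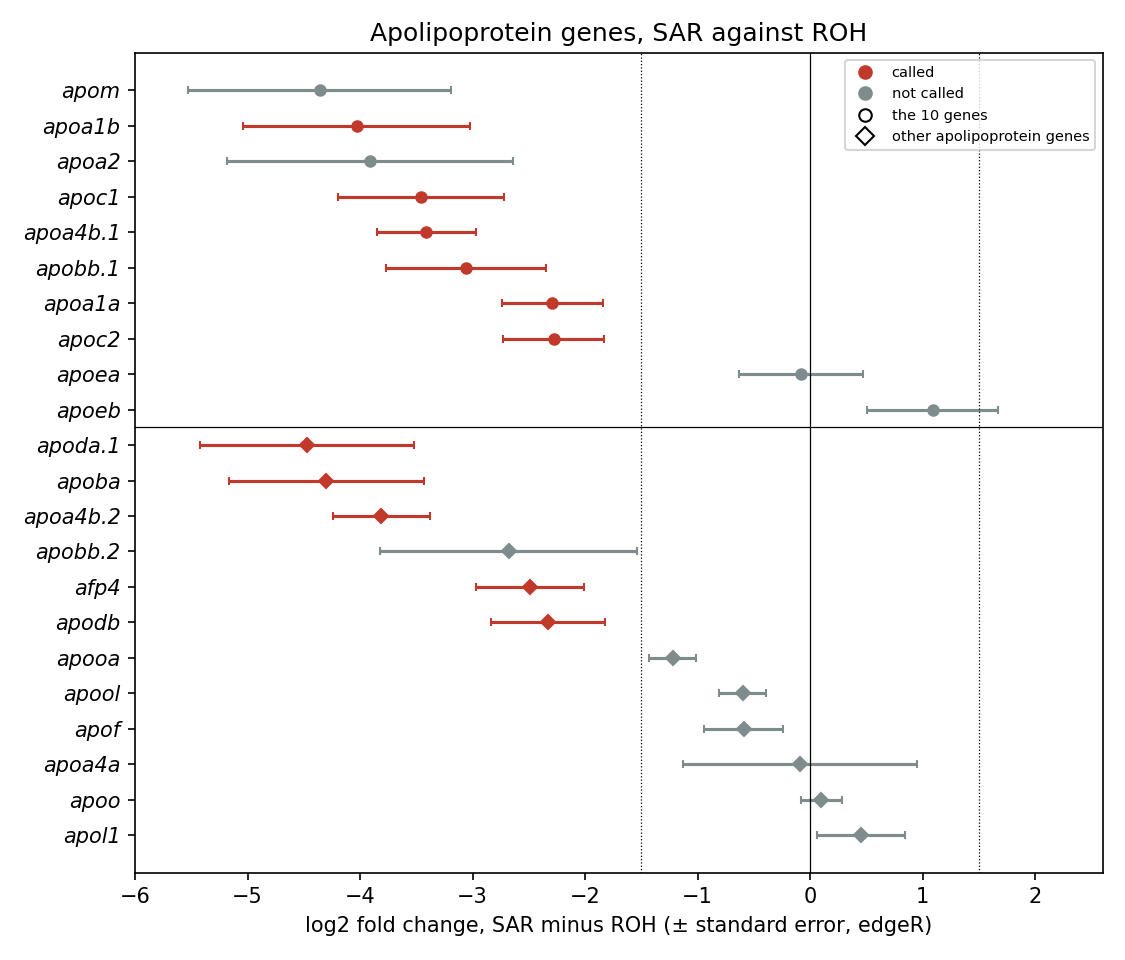
Log2 fold change, SAR minus ROH, with its standard error from edgeR for the 10 apolipoprotein genes (circles, above the line) and the 12 other tested genes, afp4 among them (diamonds, below it), called genes in red and dotted lines at a log2 fold change of 1.5 in either direction. Of the upper set 6 and of the lower set 5 are called, all on the negative side.

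Several of these genes lie next to each other. In the RefSeq annotation of GRCz12tu, a later assembly than the GRCz11 used for the counts, the protein-coding genes apoa4b.2, apoeb, apoc1, apoc4, apoa2 and apoc2 follow in that order, with apoa4b.1 a few genes before them and bcam after them. Within this run, apoeb, with a log2 fold change of 1.09, lay directly between apoa4b.2 at -3.81 and apoc1 at -3.46. The first gene beyond the run, bcam, which encodes a cell adhesion molecule, had a log2 fold change of -0.45 (edgeR adjusted p = 0.455). The gene apoea lies beside apoa4a, and the log2 fold changes of that pair were -0.08 and -0.09. The remaining 4 of the 10 genes have no direct protein-coding neighbour with an apolipoprotein symbol.

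Genes that build and release lipoprotein particles were examined as a list of 16 tested genes, with a median log2 fold change of -0.09. Of these, 4 were called lower in SAR and 0 higher, beside 3.7% and 2.84% of all tested genes. The lipid loader of apolipoprotein B, mttp, stood at 7.44, 25.2 and 8.85 CPM in SAR replicates 1 to 3 and at 81.6, 139.3 and 104.8 CPM in ROH replicates 1 to 3 (log2 fold change -2.96, SE 0.47, edgeR adjusted p = 0.00748). Also lower were pla2g12b, needed for particle secretion in zebrafish (-2.66, SE 0.59, edgeR adjusted p = 0.0263), and hnf4a, a transcription factor of liver and gut (-2.61, SE 0.45, edgeR adjusted p = 0.0103). The last gene called was creb3l3a, a membrane-bound transcription factor of lipid metabolism (-2.51, SE 0.41, edgeR adjusted p = 0.00795), which was named after its values were seen. The call of pla2g12b was lost without SAR replicate 3 or any one ROH library (edgeR adjusted p = 0.0506 to 0.0793), while those of mttp, hnf4a and creb3l3a were kept without each library in turn. The other 12 genes of the list were not called. Among them, dgat2, named after its values were seen, had the most negative value of the list and narrowly missed the call (-4.40, SE 1.17, edgeR adjusted p = 0.0501). It had 0, 29 and 1 counts in SAR replicates 1 to 3 and 5, 207 and 134 in ROH replicates 1 to 3.

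Enzymes that remodel particles in plasma numbered 12 tested genes, with a median of -0.53. Of these, 3 were called lower and 0 higher, beside 3.7% and 2.84% of all tested genes. The esterifying enzyme activated by apolipoprotein A-I, lcat, had 0.292, 1.26 and 1.44 CPM in SAR replicates 1 to 3 and 13.1, 13.2 and 9.05 CPM in ROH replicates 1 to 3 (log2 fold change -3.40, SE 0.51, edgeR adjusted p = 0.00619). The cholesteryl ester transfer protein gene cetp followed (-2.93, SE 0.35, edgeR adjusted p = 0.00264). The lipase gene lpl (ENSDARG00000087697), the enzyme that apoc2 activates, was expressed in both fractions. It stood at 112.5, 139.6 and 98.3 CPM in SAR replicates 1 to 3 and at 386.4, 494.7 and 316.0 CPM in ROH replicates 1 to 3 (-1.77, SE 0.22, edgeR adjusted p = 0.00314). All 3 calls were kept without each library in turn.

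The list for cholesterol efflux had 8 tested genes, and it also held npc1, npc2 and stard3, which act on cholesterol inside the cell. Only abcg5, part of the sterol exporter of gut and liver, was called lower (log2 fold change -2.67, SE 0.59, edgeR adjusted p = 0.0269), and 0 were higher. That call was lost without SAR replicate 3 or any one ROH library (edgeR adjusted p = 0.0623 to 0.131). The level of abcg5 was 0.288 to 4.31 CPM over all libraries, and the median of the list was -0.32. Of all tested genes, 3.7% were called lower and 2.84% higher.

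The list of lipoprotein receptors, their adaptors and receptors of carried lipids had 18 tested genes. Of these, 2 were called higher in SAR and 1 lower, beside 2.84% and 3.7% of all tested genes, and the median log2 fold change was -0.15. The endocytic receptor gene lrp1ab, whose mammalian counterpart binds apolipoprotein E, was present at 95.3, 50.1 and 98.7 CPM in SAR replicates 1 to 3 and at 17.8, 20.9 and 25.3 CPM in ROH replicates 1 to 3 (log2 fold change 1.90, SE 0.29, edgeR adjusted p = 0.00629). The sphingosine-1-phosphate receptor gene s1pr2, a receptor for the lipid that apolipoprotein M carries, stood at 77.8, 78.4 and 84.4 CPM in SAR replicates 1 to 3 and at 22.5, 24.6 and 29.99 CPM in ROH replicates 1 to 3 (log2 fold change 1.62, SE 0.17, edgeR adjusted p = 0.00157). Neither gene overlapped between the fractions, and both calls were kept without each library in turn. The adaptor gene ldlrap1a, named after its values were seen, is among the genes that the paper gives as higher in SAR. Its fractions did not overlap, but it fell short of the fold threshold here (log2 fold change 1.43, SE 0.16, edgeR adjusted p = 0.00215). The scavenger receptor gene stab1 was called lower with a log2 fold change at the threshold (SE 0.39, edgeR adjusted p = 0.0481). It kept the call only without ROH replicate 3, and edgeR adjusted p-values were 0.0632 to 0.251 without each other library. It was called in 1 of 12 other alternatives, and its log2 fold change of -1.41 under the replicate block was short of the threshold.

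**Figure D4:**
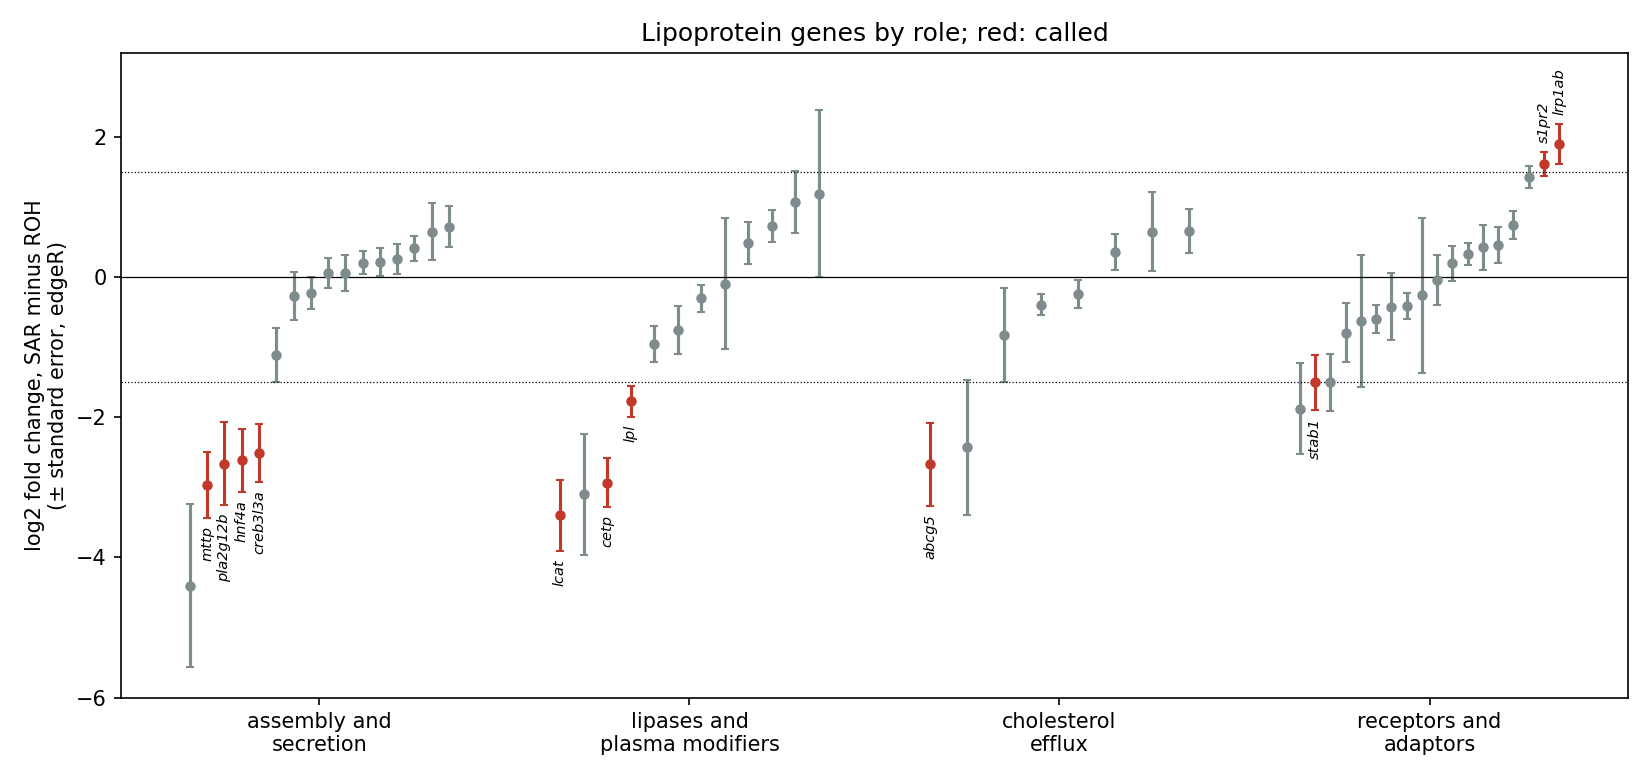
Log2 fold change, SAR minus ROH, with its standard error from edgeR for the tested genes of 4 lipoprotein lists, ordered within each list, with called genes in red and named and dotted lines at a log2 fold change of 1.5 in either direction. The lists of assembly, plasma modifiers and efflux hold 4, 3 and 1 genes called lower, and the receptors hold 1 lower and 2 higher.

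The profile of a gene over the 6 libraries was compared by the root mean square difference of its centred log2 CPM, over 11252 genes with a mean of at least 10 CPM, a description with no test. The genes nearest to the mean profile of the 10 were nipsnap1 at a difference of 0.244, mttp at 0.257, slc2a2, a glucose transporter of liver and pancreas, at 0.258, slco1d1 at 0.267 and clic5b at 0.291. Each of these differences is in log2 units, and the libraries are shared by all genes. Single genes had other nearest partners. The nearest to apom was itih2, which encodes a plasma protein made by the liver, at 0.112. For apoa2 it was fgg, a fibrinogen chain, at 0.231, for apoa1b it was ces2, a carboxylesterase, at 0.214, and for apoc1 it was ftcd, an enzyme of histidine breakdown, at 0.165. The nearest to apoa4b.1 was kmo, an enzyme of tryptophan breakdown, at 0.171, and to apobb.1 it was oxct1b, a ketone body enzyme gene, at 0.201. For apoa1a and apoc2, which shared the high level in ROH replicate 3, the nearest were si:ch211-201h21.5 at 0.121 and si:dkeyp-73b11.8 at 0.115. The nearest to apoeb was ptgdsb.1, a lipocalin gene, at 0.238, and to apoea it was cdc34a at 0.135, and neither of these partners was separated between the fractions.

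Among markers of organs outside the heart, 18 of 21 tested liver and 7 of 7 tested intestinal markers had a negative log2 fold change. Only some of these were called lower in SAR. Skin markers were called higher there for 9 of 12 genes. Of 21 tested liver markers, 10 were called lower in SAR and 0 higher, beside 3.7% and 2.84% of all tested genes. The median log2 fold change of the liver markers was -3.81, and their summed level was 216.2 to 1061 TPM in SAR against 4178 to 8132 TPM in ROH. The retinol carrier gene rbp4, named after its values were seen, made up most of the sum in SAR replicate 3 and was not called. No liver marker was at 0 in SAR. The fatty acid binding protein gene fabp10a, a defining liver marker, stood at 3.50, 23.4 and 0.954 CPM in SAR replicates 1 to 3 and at 137.9, 252.5 and 215.5 CPM in ROH replicates 1 to 3. The transferrin gene tfa stood at 56.6, 367 and 22.5 CPM in SAR and at 2178, 3491 and 1425 CPM in ROH, and uox, a urate oxidase, at 4.23, 42.5 and 0.275 CPM in SAR and at 307.6, 478.9 and 246.1 CPM in ROH. As for apoa2, apoa1b, apom and apobb.1, SAR replicate 2 was highest and SAR replicate 3 lowest for fabp10a, tfa and uox. That order was not particular to liver markers. In SAR replicates 1 to 3 it also held for the cardiomyocyte markers myl7, at 428.8, 482.3 and 58.95 CPM, and nppa, at 224.5, 339.3 and 18.93 CPM. The skin marker krt4 had it too, at 4625, 5313 and 3143 CPM. All were named after their values were seen. The medians of the cardiomyocyte list, 376.3, 342.6 and 92.5% of the ROH mean, and of the skin list did not have this order. In SAR replicates 1 to 3 the median liver marker was at 2.53, 16.8 and 0.952% of its ROH mean, where apoa1b was at 2.102, 15.5 and 0.747%, apoa2 at 1.59, 18.0 and 0.258% and apom at 2.47, 11.8 and 0.150%. The values of apobb.1 were 5.12, 26.7 and 3.60%. The part of liver RNA in these differences was not tested.

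Intestinal markers had the other profile. Of 7 tested, 4 were called lower and 0 higher, beside 3.7% and 2.84% of all tested genes, the median log2 fold change being -1.94. The summed level was 75.7 to 167.7 TPM in SAR against 360.1 to 911.5 TPM in ROH, and none was at 0 in any library. All 7 were highest in ROH replicate 3, a trait not particular to intestinal markers. It also held for 11 of 11 erythroid, 16 of 21 macrophage and 5 of 7 neutrophil markers. The enterocyte gene fabp2 stood at 26.7, 48.8 and 42.4 CPM in SAR replicates 1 to 3 and at 118.2, 185.9 and 320.6 CPM in ROH replicates 1 to 3. The same order of the ROH libraries held for fabp1b.1, at 20.6, 36.4 and 74.4 CPM, and for vil1, at 53.5, 68.4 and 164.5 CPM. In SAR replicates 1 to 3 the median intestinal marker was at 12.8, 34.8 and 23.7% of its ROH mean, where apoc2 was at 10.2, 30.2 and 21.3% and apoa1a at 11.4, 22.5 and 27.4%. The part of intestinal RNA in these differences was not tested.

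Some yolk markers were lower in SAR. Of 11 genes, 7 could be tested, with a median log2 fold change of -2.12. Of the 7, 4 were called lower and 0 higher, beside 3.7% and 2.84% of all tested genes. The 4 called lower were hnf4a, hnf1ba, mttp and ttr, listed after their values were seen, which liver or gut cells express too. The summed level overlapped between the fractions at 145.2 to 187.8 TPM in SAR and 180.5 to 268.2 TPM in ROH, and most of the SAR sum came from gata6, a transcription factor of heart and gut as well, at 201.3, 139.0 and 212.3 CPM in SAR replicates 1 to 3. The iron exporter gene slc40a1, which macrophages express too, overlapped at 30.1 to 64.9 CPM in SAR and 50.6 to 62.6 CPM in ROH. Listed as a yolk syncytial layer marker, mxtx2 was at 0 in ROH replicates 1 and 3 and at most 0.380 CPM elsewhere. The vitellogenin genes vtg1, vtg2 and vtg5 reached at most 1.90 CPM. In ROH replicate 1 the floor was 3.002 CPM, so a 0 there says little. Whether yolk cells express mxtx2 or the vitellogenin genes at 72 hpf was not tested. The part of yolk RNA in the apolipoprotein differences was not tested.

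Some macrophage and microglia markers were lower in SAR. Of 21 tested, 7 were called lower and 0 higher, beside 3.7% and 2.84% of all tested genes. The 7 called lower were spi1b, lcp1, ptprc, coro1a, slc7a7, ctss2.1 and lgals3bpb, named after their values were seen. Whether each of them marks only macrophages was not tested. The median log2 fold change was -1.72, and the summed level of the markers was 56.7 to 83.3 TPM in SAR against 105.6 to 174.6 TPM in ROH. Without cyba, the gene with the highest mean in SAR, the sums were 16.75 to 42.82 TPM in SAR and 85.76 to 146.9 TPM in ROH. The other 14, with mpeg1.1, csf1ra, marco and c1qc among them, were not called, and the fractions overlapped for 9 of the 21. The 18 symbols of the list stood for 24 genes, because several genes share the symbol mfap4. Every mfap4 gene entered these counts and medians on its own, and none was called. The perforin-like gene mpeg1.1 was at 0, 0.438 and 0.994 CPM in SAR replicates 1 to 3 and at 0.938, 3.55 and 5.16 CPM in ROH replicates 1 to 3, and csf1ra did not exceed 1.44 CPM in any library. The most abundant gene of the list, cyba, a subunit of the NADPH oxidase, was not called, at 26.7, 30.2 and 23.4 CPM in SAR and 10.3, 10.9 and 18.1 CPM in ROH. In SAR replicates 1 to 3 the median of the 21 tested macrophage markers was 9.79, 29.6 and 41.5% of the ROH mean, and apoeb was at 65.8, 186.4 and 388.6%. Both were highest in SAR replicate 3 and lowest in SAR replicate 1, an order not particular to macrophage markers. It also held for rbp4 of the liver list, at 50.9, 156 and 205.7%, and the skin marker tp63, at 80.7, 212.8 and 290.7%. Both were named after their values were seen. The medians of the skin list, 2115, 2513 and 2457%, did not have this order. The part of macrophage RNA, or of RNA from any other cell type, in the apoeb level was not tested.

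**Figure D5:**
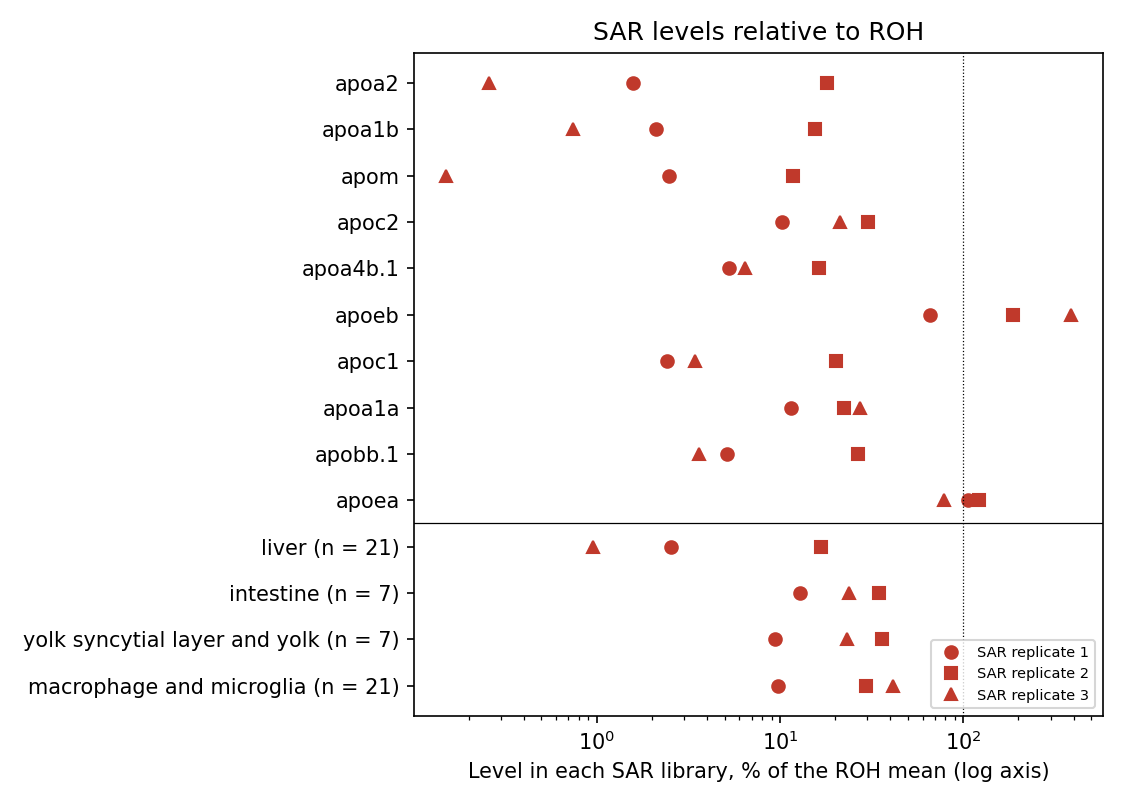
Level in each SAR library as a percentage of the ROH mean, on a log axis, for the 10 apolipoprotein genes (above the line) and as the median over all tested markers of 4 other cell types (below it, n being the number of markers), with the dotted line at 100%. For apoa2, apoa1b, apom, apobb.1 and the liver median, SAR replicate 3 is lowest and SAR replicate 2 highest, and apoeb extends to 388.6%.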

How the data were processed

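Gene-level Salmon tables of 6 libraries were used (3 SAR, 3 ROH, 72 hpf, SMART-Seq v4 and Nextera XT, paired-end reads). The authors mapped reads to GRCz11 with Ensembl 92 annotation; the deposited files give estimated counts (expected counts), TPM as the authors' length-scaled levels, and effective lengths. Multi-mapping reads between paralogues are shared out by Salmon, so levels of near-identical genes are uncertain, and strand was not used. Estimated counts were rounded and tested with edgeR 4.0.16 (R 4.3.3): genes kept by filterByExpr (minimum count 10, minimum total 15), TMM normalization, quasi-likelihood test of SAR against ROH, Benjamini-Hochberg adjustment over all tested genes, call at adjusted p under 0.05 and a log2 fold change of 1.5 or more in either direction. The SE is the fold change divided by the square root of F. CPM are TMM-normalized, and ± is the SD of 3 libraries.

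The members, gene lists and tests were chosen with earlier results of these data known. Of the genes named, all members, all tested other apolipoproteins, called pathway genes (up to 3 a list and direction), the 3 most abundant markers of 4 lists and the nearest profiles were taken by rule; the mfap4 genes among these markers share a symbol and are not described. Symbols came from the study's supplementary tables (2807 genes) and a gene name table (26193); 2465 had none. Of 18 other apolipoprotein symbols, 13 matched. Each pool of hearts was sorted into both fractions, so same-numbered libraries were taken as pairs; their deviations from the group means correlated at 0.0985, 0.273 and 0.124. The study used no block, nor did the main test. Blocked results are given where they change a call of a member, other apolipoprotein, called pathway gene or most abundant marker. Alternatives used DESeq2 1.42.0, limma 3.58.1 on quantile-normalized log2(TPM + 1) or log2(TPM + 0.1), other size factors, filters, length offsets, thinned counts, no globin genes, a block and each library left out. On simulated data, edgeR with and without the block, DESeq2 and limma at log2(TPM + 1), with and without the limit on mean TPM, were tested. The other alternatives were not. The simulated counts held no differences between pools and no outlying library, so the methods were not tested under these. Replicates are separate pools. The main test sets each difference against the spread between libraries of the same fraction, and the blocked test against what is left after differences between pools are removed. The floor of 3 counts covers counting error only.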

Additional observations from a re-analysis of the deposited data

How the results depend on the processing

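Of the 10 genes, apoa4b.1 was called in 12 of 12 alternatives other than leaving out a library, apoa1a, apobb.1 and apoc2 in 11 of 12, apoa1b in 10 of 12, apoc1 in 9 of 10, apom in 7 of 11 and apoa2 in 4 of 12, while apoea and apoeb were called in none. The 8 separated genes kept a negative sign in every alternative and without each library. With a library left out, that sign largely follows from their separation. For apoea the sign turned with limma at log2(TPM + 1) (0.13, or 0.12 with a mean TPM of at least 1) and at log2(TPM + 0.1) (0.17), and it ran from -0.32 to 0.48 with 1 library left out. The apoa4a value was 0.04 with the replicate block and -1.30 to 0.30 with 1 library left out. For apoo it was -0.01 with library totals only and with counts thinned to the smallest library, and -0.01 to 0.21 with 1 library left out. The causes were not tested.

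Against 624 genes called higher and 813 lower, at least 10 counts in every library, which left 11306 genes, gave 215 and 391, with 7 in place of 14 other lipoprotein genes lower. limma at log2(TPM + 1) gave 394 higher, and at log2(TPM + 0.1) 314 higher and 399 lower, with 1 of the 10 genes lower and 7 and 1 other lipoprotein genes lower and higher. Thinning gave 398 higher and no fold change threshold 1072 higher. As a share of estimated counts, the 10 genes made up a mean of 0.645% of ROH instead of 1.4% of TPM. Leaving out 1 library gave 369 to 647 genes higher, 442 to 1035 lower, 2 to 8 of the 10 genes lower and a median log2 fold change of -4.36 to -2.80, lowest without SAR replicate 2.

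Taking the replicate number as a block gave 719 genes higher and 1040 lower and 8 of the 10 lower, adding apoa2 (-5.66, edgeR adjusted p = 0.0124) and apom (-5.59, edgeR adjusted p = 0.0115). Among the other apolipoproteins, called pathway genes and most abundant markers taken by rule, the block also called apobb.2 and uox. It no longer called stab1, and it changed no other call among these groups. ROH replicate 1 holds 999437 counts, and there apoea rests on 1 count and apoc1 on 9.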

Other observations

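Other cell types in the fractions gave the following values. Genes listed as neutrophil markers were called lower in SAR for 5 of 7 genes, the median log2 fold change being -3.49. Whether each of them, cpa5 among them, marks only neutrophils was not tested. Their summed level was 24.4 to 352.7 TPM in SAR against 838.1 to 1447 TPM in ROH, and 23.1 to 40.5 TPM against 485 to 607.5 TPM without cpa5, the gene with the highest mean in SAR. Endocardial and endothelial markers were called lower for 5 of 9 genes (median -2.07), and epicardial and mesothelial markers were called higher for 5 of 6 genes (median 3.31). Of all tested genes, 3.7% were called lower and 2.84% higher.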
